A study of Mus musculus with 12 samples.

Results

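The ageing of epididymal fat cells from mice labelled as lacking Crtc2 in adipocytes was read from 6 of the 12 RNA libraries of a mouse study, by setting 3 old libraries against 3 young ones. The groups were old AKO (18 months, adipocyte-specific Crtc2 knockout) and young AKO (3 months, the same genotype), and beside them old WT (18 months, floxed Crtc2, labelled wild type) and young WT (3 months, the same), with 3 libraries each. All mice were C57BL/6N, and all RNA came from primary adipocytes of epididymal fat, the visceral depot beside the testis. The promoter that drives the deletion, and the way the adipocytes were freed from the other cells of the depot, are not given in the sources used here. The 6 AKO libraries held 51138906 to 61125366 estimated reads, and 15068 of 24541 gene symbols had enough reads to be tested. Whether the 3 libraries of a group stem from different animals is not given, and p-values here measure only the spread between libraries, which may be technical. In such bulk samples, fewer cells of a type and less RNA per cell cannot be told apart.

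Crtc2 works as a coactivator for CREB, through which glucagon, catecholamines and other cyclic AMP signals switch on genes. White adipocytes store triglyceride under insulin, break it down under cyclic AMP, and secrete hormones such as leptin and adiponectin. With age, visceral fat is known for lower mitochondrial capacity, more immune cells and changes in its matrix, and adipocytes are isolated together with some cells of the vessels, the stroma and the mesothelium that covers the fat pad. The comparison asks which genes differ between old and young fat cells when the genotype is held at the AKO label.

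Crtc2 itself (chromosome 3, 90254281 to 90264125, mm10) had 9179, 9977 and 9144 estimated reads in old AKO libraries, against 7751, 15024 and 15248 in young AKO libraries. These levels go against the label, since old WT libraries had 2918, 2891 and 2521 reads of Crtc2 and young WT libraries 2684, 3567 and 4256. AKO therefore means "labelled AKO" throughout. As counts scaled to library size after TMM scaling (CPM), Crtc2 was at 151, 161 and 154 CPM in old AKO libraries, against 164, 300.3 and 280.2 CPM in young AKO libraries, and the groups did not overlap (log2 fold change -0.68 ± 0.20, adjusted p = 0.0406 by edgeR). That call was lost without any 1 old AKO library (adjusted p = 0.126, 0.0914 and 0.109 without replicate 1, 2 or 3) and when either of the 2 higher young AKO libraries was left out (0.116 for replicate 2 and 0.134 for replicate 3, all by edgeR). Without young AKO replicate 1, the lowest of the young libraries, the log2 fold change was -0.90 (adjusted p = 0.00788 by edgeR). The call was also lost, at the same direction, without old WT replicate 1, 2 or 3 (adjusted p = 0.0647, 0.0622 and 0.0503) and young WT replicate 2 (0.0544, all by edgeR), and over all alternatives the adjusted p ran from 0.00788 to 0.691.

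Age separated the AKO libraries. On the first principal component of the 12 libraries, which held 50.4% of the variance, old AKO libraries lay at -32.1, -18.5 and -6.87 and young AKO libraries at 62.9, 74.4 and 75.1, without overlap. The RNA fitted the labelled cell type: the fat-cell genes Adipoq, the hormone adiponectin, and Fabp4, a fatty acid carrier, were at 5182, 5685 and 4710 CPM in old AKO and 3755, 5516 and 5202 CPM in young AKO, and at 14850, 13060 and 15290 CPM in old AKO and 12680, 15420 and 14930 CPM in young AKO. The 31 adipocyte identity genes summed to 106700 to 118200 CPM in old AKO libraries and 145300 to 162900 CPM in young AKO libraries, without overlap. The list includes Fasn, described below, but young AKO replicate 2, the lowest young library in Fasn, still summed to 145300 CPM. RNA of other cells was also present, and markers of several of those cell types were higher in old AKO, as given with each group of genes below.

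Between old and young AKO libraries, 2766 genes were called by edgeR's quasi-likelihood test at an adjusted p under 0.05, which is 18.4% of the genes tested. Of these 1571 were higher in old AKO (10.4%) and 1195 lower (7.93%), and 5330 genes had an unadjusted p under 0.05. Counts of list members called below stand beside the 10.4% higher and 7.93% lower over all genes tested. The median log2 fold change over all genes tested was -0.01, and list medians below are given beside it. How far the median of a list of such size strays from that value was not tested. Among the lists described below, mesothelial, fibroblast, macrophage, vessel and antigen presentation genes had medians above 0, and genes of lipid synthesis, respiration and the citric acid cycle had medians below 0. The count of calls fell when single AKO libraries were left out: it was 732, 1213 and 1506 when old AKO replicate 1, 2 or 3 was left out, and 1972, 2238 and 833 when young AKO replicate 1, 2 or 3 was. On the deposited FPKM values, tested with limma, 1713 genes were higher and 274 lower, so that 86.2% of the calls were rises, against 56.8% on the counts. Ranges of list medians below are over all 12 ways of leaving out 1 library. Old and young AKO libraries did not overlap for 6863 of the 15068 genes tested (3265 of them lower in old AKO) and for 2747 of the 2766 called. The genes named as the 12 largest rises and the 12 largest falls were chosen among those that do not overlap. Fold changes are log2 values of old AKO over young AKO ± SE, n = 3 libraries per group.

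**Figure D1:**
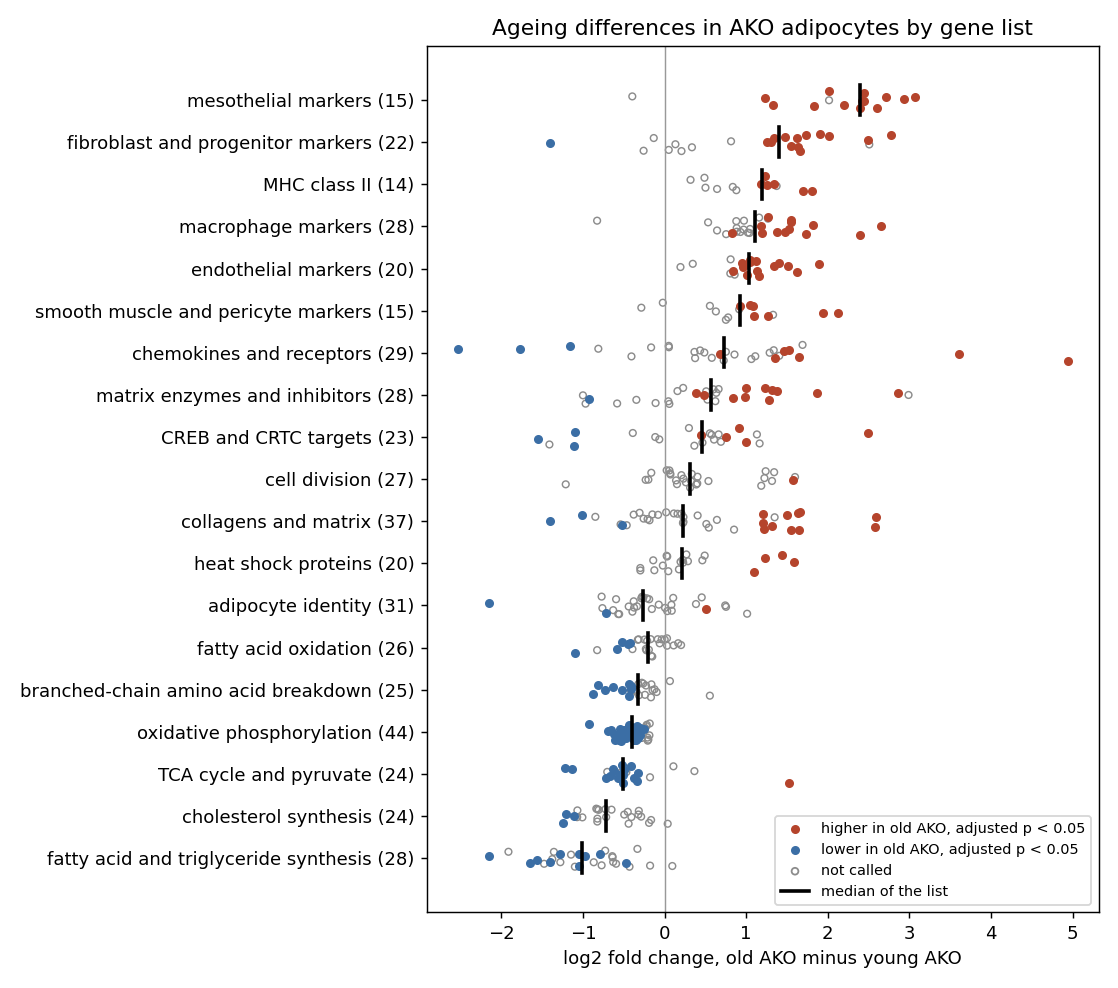
Log2 fold change of old AKO over young AKO (x axis) for each tested gene of 19 gene lists (y axis, number of tested genes in brackets). Filled points passed an adjusted p under 0.05, red where higher and blue where lower in old AKO, open points did not, and black bars are medians, from 2.39 for mesothelial markers to -1.01 for fatty acid and triglyceride synthesis.

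Genes of the mitochondrial respiratory chain were lower in old AKO almost throughout. Of 44 nuclear genes of oxidative phosphorylation, 34 fell and 0 rose, the median was -0.40, and all 44 log2 fold changes lay below 0, between -0.93 and -0.18. The groups did not overlap for 43 of the 44, all 43 lower, beside 3265 lower of 15068 over all genes tested. Cox7b, a subunit of cytochrome c oxidase, had 118, 121 and 123 CPM in old AKO libraries, against 172, 159 and 187 CPM in young AKO libraries (log2 fold change -0.52 ± 0.09, adjusted p = 0.00519 by edgeR). Uqcrb, a subunit of complex III, had 90.1, 89.2 and 89.8 CPM in old AKO libraries, against 129.5, 111 and 117 CPM in young AKO libraries (log2 fold change -0.41 ± 0.08, adjusted p = 0.00803 by edgeR). The 3 old libraries of each gene lay within a few CPM of each other and below every young one. Cyc1, the cytochrome c1 of complex III, fell by 0.69 (SE 0.13), and Ndufs4, an accessory subunit of complex I, fell by 0.61 (SE 0.12), with adjusted p = 0.0082 and 0.00829 by edgeR. Single changes were small, and the number of the 44 called lower fell when any 1 AKO library was left out. It was 7, 11 and 13 without old AKO replicate 1, 2 or 3, against 24, 30 and 9 without young AKO replicate 1, 2 or 3. It was 25 without old WT replicate 1 and 25 without old WT replicate 2. The median stayed at -0.45 to -0.37. On FPKM 10 of the 44 were lower and the median was -0.24, with all 44 still below 0. In WT the same list had 4 lower and 0 higher genes and a median of -0.18, with 0 lower without young WT replicate 3 and 19 lower without young WT replicate 1.

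The citric acid cycle moved with the respiratory chain. Of 24 genes of the cycle and of pyruvate use, 16 fell and 1 rose, with a median of -0.51. Pcx, pyruvate carboxylase, which feeds the cycle with oxaloacetate, had 1335, 1510 and 1503 CPM in old AKO libraries, against 3985, 2615 and 3576 CPM in young AKO libraries (log2 fold change -1.23 ± 0.27, adjusted p = 0.0141 by edgeR). Idh3b, a subunit of isocitrate dehydrogenase, fell by 0.51 (SE 0.11, adjusted p = 0.012 by edgeR). The 1 gene that rose was Pdk4, the kinase that switches off pyruvate dehydrogenase, with 157, 135 and 201 CPM in old AKO libraries, against 68.6, 44.0 and 59.0 CPM in young AKO libraries (log2 fold change 1.52 ± 0.29, adjusted p = 0.00853 by edgeR). Every old library of Pdk4 lay above every young one. The count of lower genes was 0, 3 and 6 without old AKO replicate 1, 2 or 3, against 8, 18 and 0 without young AKO replicate 1, 2 or 3, and the median ranged over -0.58 to -0.46. On FPKM 4 were lower and 1 higher, with a median of -0.35. In WT 7 of the 24 were lower and 1 higher.

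Fat and amino acid burning followed at smaller sizes. Of 26 genes of fatty acid oxidation, 5 fell and 0 rose (median -0.20): among them Cpt2, which completes carnitine import of fatty acids (-0.59 ± 0.16), the thioesterase Acot2 (-0.44 ± 0.09), the hydratase Echs1 (-0.52 ± 0.15) and Ppargc1a, the coactivator that drives mitochondrial gene expression and itself a CREB target. Ppargc1a had 3.33, 5.33 and 5.59 CPM in old AKO libraries, against 9.06, 10.1 and 11.4 CPM in young AKO libraries (log2 fold change -1.10 ± 0.28, adjusted p = 0.0257 by edgeR). Of 25 genes of branched-chain amino acid breakdown, 9 fell and 0 rose (median -0.32), including Hsd17b10, a dehydrogenase of isoleucine breakdown (-0.63 ± 0.12), Mccc2, a subunit of methylcrotonyl-CoA carboxylase (-0.74 ± 0.17), and Bckdk, the kinase that restrains the pathway (-0.43 ± 0.08). Adjusted p of these genes lay between 0.00771 and 0.0324 by edgeR. The lower genes of fatty acid oxidation numbered 0, 1 and 3 without old AKO replicate 1, 2 or 3, against 4, 6 and 1 without young AKO replicate 1, 2 or 3. Those of branched-chain amino acid breakdown numbered 2, 3 and 3 without old AKO replicate 1, 2 or 3, against 10, 3 and 2 without young AKO replicate 1, 2 or 3. The same lists in WT had 8 and 16 lower genes and 0 higher. Of the 14 mitochondrial genes named here and in the paragraphs above as changed, 7, 11 and 13 remained called without old AKO replicate 1, 2 or 3, as did 13, 13 and 8 without young AKO replicate 1, 2 or 3, and at least 12 without any 1 WT library. Summed markers of other cells moved with these falls: endothelial markers summed to 3025, 2309 and 2047 CPM in old AKO, against 1372, 1084 and 961 CPM in young AKO, and macrophage markers to 693, 737 and 549 CPM, against 373, 370 and 287 CPM. Their part in the lower mitochondrial levels was not tested.

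**Figure D2:**
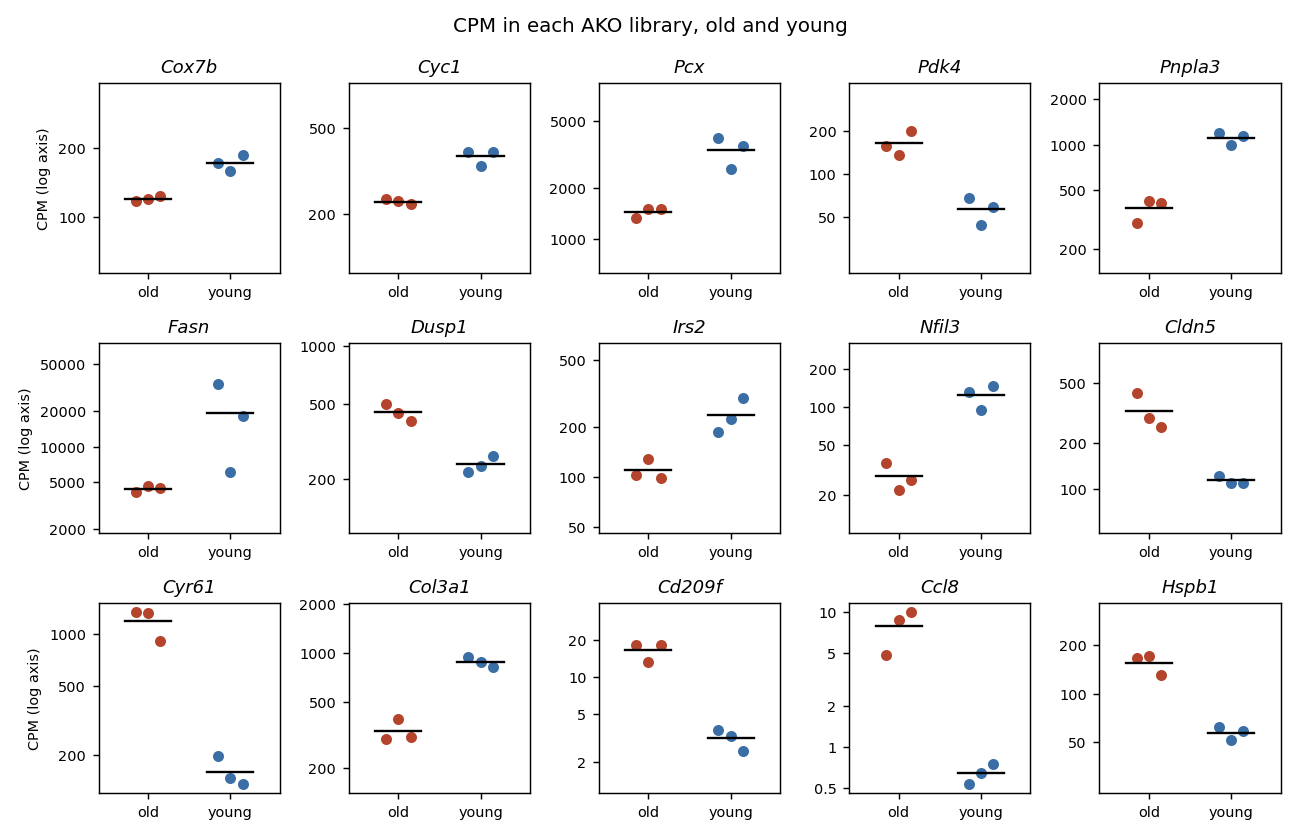
CPM on log axes (y axis) of 15 genes in the 3 old and 3 young AKO libraries (x axis), with points for libraries and a bar for the group mean. The groups do not overlap for any gene shown, and Fasn is the gene whose young libraries lie widest apart, at 34130, 6085 and 18140 CPM.

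Genes that make fat had the lowest median of the pathway lists in old AKO. Of 28 genes of fatty acid and triglyceride synthesis, 10 fell and 0 rose, with a median of -1.01, and 27 of 28 lay below 0. Pnpla3, a lipase relative that follows feeding and insulin, had 299, 418 and 409.5 CPM in old AKO libraries, against 1199, 999 and 1137 CPM in young AKO libraries (log2 fold change -1.57 ± 0.29, adjusted p = 0.00746 by edgeR). Mlxipl, which encodes the carbohydrate-sensing factor ChREBP, had 112, 124 and 115 CPM in old AKO libraries, against 257, 229 and 237 CPM in young AKO libraries (log2 fold change -1.04 ± 0.19, adjusted p = 0.00783 by edgeR). In both genes the young libraries were close together and far above the old ones. Fads1, a fatty acid desaturase, fell by 0.98 (SE 0.23, adjusted p = 0.0189 by edgeR). Other members were spread widely within the young group. Fasn, fatty acid synthase, had 4092, 4577 and 4436 CPM in old AKO libraries, against 34130, 6085 and 18140 CPM in young AKO libraries, and Agpat2, an acyltransferase of triglyceride synthesis, had 505, 601 and 584 CPM in old AKO libraries, against 2282, 789.7 and 1412 CPM in young AKO libraries. Young AKO replicate 1 was the highest library of both and young AKO replicate 2 the lowest of the young ones, still above every old library (log2 fold change -2.15 ± 0.68, adjusted p = 0.0488 by edgeR for Fasn; log2 fold change -1.41 ± 0.34, adjusted p = 0.0205 by edgeR for Agpat2). The list's count of lower genes was 2, 3 and 2 without old AKO replicate 1, 2 or 3, against 3, 18 and 4 without young AKO replicate 1, 2 or 3, and its median ranged over -1.08 to -0.61, nearest to 0 without young AKO replicate 1. On FPKM 3 were lower, with a median of -0.77. The WT list had 9 lower and 0 higher genes and a median of -0.52.

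Cholesterol synthesis had the same spread within the young group. Of 24 genes, 3 fell and 0 rose, and the median was -0.72, with 23 of 24 below 0. Cyp51, an enzyme of the later steps of the pathway, had 32.9, 36.1 and 33.9 CPM in old AKO libraries, against 123, 42.7 and 71.8 CPM in young AKO libraries (log2 fold change -1.21 ± 0.36, adjusted p = 0.0401 by edgeR). Young AKO replicate 1 was the highest library and young AKO replicate 2 the lowest of the young ones, above every old library. Pmvk, an enzyme of the mevalonate steps, fell by 1.11 (SE 0.33, adjusted p = 0.0401 by edgeR). The summed level of the list was 1417 to 1574 CPM in old AKO libraries and 1421 to 3652 CPM in young AKO libraries, so the sums overlap. The number of genes called lower was 0, 0 and 0 without old AKO replicate 1, 2 or 3, against 0, 14 and 1 without young AKO replicate 1, 2 or 3, and the median ranged over -1.01 to -0.21. On FPKM 0 were called, with a median of -0.40. In WT the median was -0.23.

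Few genes that define the adipocyte were called, though their summed level, given above, was lower in every old AKO library than in any young one. Of 31 adipocyte identity genes, 1 rose and 2 fell, beside 10.4% higher and 7.93% lower over all genes tested. The median of the list was -0.26. Lpl, the lipase that takes fatty acids from circulating lipoproteins, had 7891, 11640 and 9353 CPM in old AKO libraries, against 15940, 14040 and 17580 CPM in young AKO libraries (log2 fold change -0.72 ± 0.21, adjusted p = 0.0359 by edgeR), and Aqp7, the glycerol channel, had 159, 148 and 148 CPM in old AKO libraries, against 99.7, 117 and 103 CPM in young AKO libraries (log2 fold change 0.51 ± 0.15, adjusted p = 0.0419 by edgeR). The droplet protein Plin1 had 1655, 1789 and 1801 CPM in old AKO and 2221, 2120 and 2451 CPM in young AKO, and did not pass the test (-0.37 ± 0.14, adjusted p = 0.077 by edgeR). Of 18 adipokines tested out of 20 listed, 1 rose and 1 fell, beside the same shares over all genes tested. Angptl4, a fasting-induced inhibitor of lipoprotein lipase, had 1114, 1170 and 1046 CPM in old AKO libraries, against 457, 789 and 719.8 CPM in young AKO libraries (log2 fold change 0.76 ± 0.19, adjusted p = 0.0212 by edgeR). Lcn2, lipocalin 2, fell by 1.16 (SE 0.36, adjusted p = 0.0478 by edgeR), and Retn, resistin, lay at -0.76 ± 0.26 without passing the test (adjusted p = 0.0618 by edgeR). Sfrp5, a secreted antagonist of WNT ligands, had 315, 197 and 273 CPM in old AKO libraries, against 10.5, 16.5 and 13.5 CPM in young AKO libraries, far apart, but did not pass either (4.28 ± 1.45, adjusted p = 0.0625 by edgeR). Called genes of the adipocyte identity list numbered 0 to 7 with 1 library left out and those of the adipokine list 0 to 7 with 1 library left out. In WT 12 adipocyte identity genes were lower and 0 higher (median -0.50). Of the 11 genes of lipid metabolism and adipokines named here and above as changed, 2, 4 and 3 remained called without old AKO replicate 1, 2 or 3, as did 4, 9 and 3 without young AKO replicate 1, 2 or 3, and at least 5 without any 1 WT library.

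Genes of the cyclic AMP and lipolysis pathway were called in both directions. Of 32 tested, 5 rose and 3 fell, beside 10.4% higher and 7.93% lower over all genes tested, and the median was 0.01. Among receptors, Npr1, the natriuretic peptide receptor that starts lipolysis through cyclic GMP, rose, with 67.3, 56.2 and 43.4 CPM in old AKO libraries, against 25.5, 25.1 and 21.5 CPM in young AKO libraries (log2 fold change 1.21 ± 0.22, adjusted p = 0.00763 by edgeR). Hcar2, a receptor that lowers cyclic AMP, fell, with 47.5, 49.0 and 43.4 CPM in old AKO libraries, against 66.2, 91.1 and 149 CPM in young AKO libraries (log2 fold change -1.13 ± 0.28, adjusted p = 0.0212 by edgeR). Gnai2, an inhibitory G protein subunit, rose by a small but even step (0.31 ± 0.08), and Abhd5, the activator of the triglyceride lipase, fell (-0.89 ± 0.23, adjusted p = 0.0259 and 0.0252 by edgeR). For each of these 4 genes old and young libraries did not overlap. The count of called genes of the list fell to 1, 1 and 3 without old AKO replicate 1, 2 or 3, against 4, 5 and 1 without young AKO replicate 1, 2 or 3.

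Targets of CREB and its coactivators were also called in both directions. Of 23 tested out of 27 listed, 5 rose and 3 fell, with a median of 0.46, and the WT list had 8 higher and 2 lower genes. Dusp1, a phosphatase that switches off MAP kinases, had 499, 445 and 407 CPM in old AKO libraries, against 218, 235 and 267 CPM in young AKO libraries (log2 fold change 0.91 ± 0.21, adjusted p = 0.018 by edgeR). Sik1, a kinase that feeds back on CRTC proteins, had 185, 134 and 113 CPM in old AKO libraries, against 77.7, 66.3 and 72.1 CPM in young AKO libraries (log2 fold change 1.00 ± 0.23, adjusted p = 0.0166 by edgeR). Both were higher in every old library. Bdnf, a neurotrophin, was low in all libraries, with 2.2, 2.13 and 2.0 CPM in old AKO libraries, against 0.36, 0.26 and 0.496 CPM in young AKO libraries (log2 fold change 2.49 ± 0.29, adjusted p = 0.00158 by edgeR). Irs2, an insulin receptor substrate, was lower, with 103, 128 and 98.2 CPM in old AKO libraries, against 187, 223 and 298 CPM in young AKO libraries (log2 fold change -1.11 ± 0.21, adjusted p = 0.00835 by edgeR). Called members of the list numbered 2, 4 and 6 without old AKO replicate 1, 2 or 3, against 7, 7 and 3 without young AKO replicate 1, 2 or 3, and its median ranged over 0.39 to 0.63. A promoter sequence was at hand for 18 of the 23 genes, and the palindromic CREB motif TGACGTCA, read in the 250 bases before the start site, was found for 2 of them (Dusp1 and Areg). Counted by promoter, since a gene can have several start sites, these were 2 of 28 promoters, against 1.55% of all 32851 mouse promoters of that length and 2.44% of the promoters of genes tested here. The shorter letters TGACG, searched on both strands and contained in the palindrome, were found in 16 of the 28 promoters (15 of the 18 genes), against 17.8% of all promoters and 24.99% of those of genes tested. The Dusp1 promoter is shown because that gene both holds the palindrome and rose; the 250 bases before the start (RefSeq, GRCm38.p6, chr17:26508473-26508722, minus strand) are printed 5′ to 3′ with TGACGTCA in capitals. Areg, which also holds the palindrome, was not called (log2 fold change 1.165, adjusted p = 0.116 by edgeR). As the list is of known CREB targets, its share of matches does not bear on age. The match describes the letters only.
Dusp1: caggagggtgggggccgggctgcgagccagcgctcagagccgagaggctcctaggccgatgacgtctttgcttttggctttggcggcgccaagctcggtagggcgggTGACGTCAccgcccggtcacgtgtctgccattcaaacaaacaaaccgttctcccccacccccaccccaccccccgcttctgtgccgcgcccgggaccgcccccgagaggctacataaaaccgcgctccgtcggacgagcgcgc

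Insulin and clock genes gave named falls. Of 31 genes of insulin signalling and glucose use, 2 rose and 7 fell, with a median of -0.20. Pik3cb, a catalytic subunit of PI 3-kinase, had 50.7, 63.5 and 55.7 CPM in old AKO libraries, against 136, 99.5 and 112 CPM in young AKO libraries (log2 fold change -1.03 ± 0.17, adjusted p = 0.00544 by edgeR). Between the hexokinases, which trap glucose in the cell, Hk1 rose, with 42.8, 25.9 and 35.8 CPM in old AKO and 16.6, 16.7 and 16.3 CPM in young AKO (1.07 ± 0.21), and Hk2, the insulin-responsive one, fell, with 271, 246 and 243 CPM in old AKO and 356, 392 and 394 CPM in young AKO (-0.59 ± 0.12, adjusted p = 0.00996 and 0.011 by edgeR). Of 20 clock genes, 1 rose and 4 fell (median -0.15, or 0.02 on FPKM). Nfil3, a repressor in the clock's output loop, had 35.7, 22 and 26.4 CPM in old AKO libraries, against 131, 94.7 and 145 CPM in young AKO libraries (log2 fold change -2.14 ± 0.38, adjusted p = 0.00716 by edgeR), and Bhlhe40, a repressor that answers to oxygen and feeding, had 67.6, 55.9 and 60.4 CPM in old AKO libraries, against 167, 225 and 175 CPM in young AKO libraries (log2 fold change -1.62 ± 0.21, adjusted p = 0.00224 by edgeR). No old library reached the lowest young one in either gene. Npas2, a partner of Bmal1, and Rora, an activator of Bmal1, fell by 1.84 (SE 0.37) and 0.53 (SE 0.15), with adjusted p = 0.0109 and 0.0313 by edgeR. Called genes of insulin signalling and glucose use numbered 4, 5 and 5 without old AKO replicate 1, 2 or 3, against 6, 10 and 5 without young AKO replicate 1, 2 or 3. Called clock genes numbered 3 to 7 with 1 library left out. The hour at which tissue was taken is not given in the sources used here. Of 12 thermogenic genes tested, 1 rose and 1 fell, beside 10.4% higher and 7.93% lower over all genes tested. Prdm16, a regulator of brown and beige fat cells, rose (1.08 ± 0.22), and Ppargc1a fell. Of the 16 genes named here and in the paragraphs on cyclic AMP and CREB targets as changed, 9, 12 and 13 remained called without old AKO replicate 1, 2 or 3, as did 13, 14 and 11 without young AKO replicate 1, 2 or 3, and at least 15 without any 1 WT library.

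Endothelial genes were higher in old AKO. Of 20 markers tested out of 21, 15 rose and 0 fell, with a median of 1.03, and all 20 lay above 0. Vwf, the clotting factor made by endothelium, had 33.7, 26.5 and 19.2 CPM in old AKO libraries, against 8.4, 7.26 and 5.71 CPM in young AKO libraries (log2 fold change 1.89 ± 0.28, adjusted p = 0.00364 by edgeR). Cldn5, a tight junction protein, had 427, 291 and 254 CPM in old AKO libraries, against 122, 109 and 109 CPM in young AKO libraries (log2 fold change 1.52 ± 0.28, adjusted p = 0.00783 by edgeR). The groups did not overlap in either. Sox17, a transcription factor of arterial endothelium, and Tek, the receptor of angiopoietins, rose by 1.63 ± 0.26 and 1.40 ± 0.25, with adjusted p = 0.00453 and 0.00676 by edgeR. The number called was 4, 5 and 13 without old AKO replicate 1, 2 or 3, against 14, 5 and 4 without young AKO replicate 1, 2 or 3, and the median ranged over 0.87 to 1.20. Summed over the list, endothelial markers stood at 3025, 2309 and 2047 CPM in old AKO and 1372, 1084 and 961 CPM in young AKO. In WT 4 of the 20 were higher and 0 lower, with a median of 0.68.

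Markers of mural cells, the pericytes and smooth muscle around vessels, were also higher. Of 15 markers, 7 rose and 0 fell (median 0.92). Tagln, an actin-binding protein of smooth muscle, had 52.2, 39.3 and 32.2 CPM in old AKO libraries, against 10.8, 12.8 and 8.53 CPM in young AKO libraries (log2 fold change 1.94 ± 0.28, adjusted p = 0.00323 by edgeR). Lmod1 (2.12 ± 0.37), Des, the muscle intermediate filament (1.08 ± 0.15), and Ndufa4l2, a pericyte gene (1.27 ± 0.29), also rose, with adjusted p = 0.00604, 0.00297 and 0.0164 by edgeR. The number called was 3, 4 and 5 without old AKO replicate 1, 2 or 3, against 7, 5 and 3 without young AKO replicate 1, 2 or 3. Angpt1, the angiopoietin that signals to Tek and steadies vessels, went the other way, with 3.92, 8.44 and 10.1 CPM in old AKO libraries, against 26.8, 80.5 and 50.5 CPM in young AKO libraries (log2 fold change -2.81 ± 0.61, adjusted p = 0.0141 by edgeR). Young AKO libraries of Angpt1 differed widely among themselves. In WT Angpt1 was also lower in old libraries (-3.76 ± 0.64, adjusted p = 0.00517 by edgeR). Of the 9 vessel genes named as changed, 7, 9 and 9 remained called without old AKO replicate 1, 2 or 3, as did 9, 9 and 8 without young AKO replicate 1, 2 or 3, and at least 9 without any 1 WT library.

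Most fibroblast and progenitor markers were higher in old AKO. Of 22 tested, 13 rose and 1 fell, with a median of 1.40, and 19 of 22 lay above 0. The summed level, 19808 to 23132 CPM in old AKO libraries and 16318 to 29610 CPM in young AKO libraries, overlapped. Cd248, or endosialin, a surface protein of stromal progenitors, had 13.6, 10.6 and 8.94 CPM in old AKO libraries, against 3.98, 3.22 and 3.56 CPM in young AKO libraries (log2 fold change 1.62 ± 0.17, adjusted p = 0.000641 by edgeR). Clec3b, tetranectin, had 38.9, 27.7 and 23.2 CPM in old AKO libraries, against 7.6, 11 and 8.51 CPM in young AKO libraries (log2 fold change 1.73 ± 0.25, adjusted p = 0.00323 by edgeR). The 1 gene that fell was Col3a1, the type III collagen of soft tissue, with 298, 396 and 310.2 CPM in old AKO libraries, against 951, 883 and 818 CPM in young AKO libraries (log2 fold change -1.40 ± 0.16, adjusted p = 0.00157 by edgeR). Every old library of Col3a1 lay below every young one. The number of rises was 10, 10 and 12 without old AKO replicate 1, 2 or 3, against 13, 11 and 10 without young AKO replicate 1, 2 or 3, and the median ranged over 1.25 to 1.61. WT had 16 higher and 3 lower.

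Matrix genes were called in both directions. Of 37 collagen and matrix genes, 11 rose and 3 fell, and the median was 0.23. Fbn1, fibrillin 1 of elastic microfibrils, had 55.8, 42.3 and 36.5 CPM in old AKO libraries, against 17.9, 13.5 and 11.3 CPM in young AKO libraries (log2 fold change 1.66 ± 0.23, adjusted p = 0.00323 by edgeR), and Postn, periostin, rose by 1.32 ± 0.21 and Col14a1, a collagen that spaces fibrils, by 2.58 ± 0.42 (adjusted p = 0.00453 and 0.00461 by edgeR). Lama1, the laminin alpha 1 chain of basement membranes, was among the 12 largest falls, with 0.394, 1.13 and 0.64 CPM in old AKO libraries, against 2.65, 9.82 and 5.66 CPM in young AKO libraries (log2 fold change -3.06 ± 0.79, adjusted p = 0.026 by edgeR). Of 28 matrix enzymes and inhibitors, 11 rose and 1 fell (median 0.56). Timp2, an inhibitor of metalloproteinases, had 134, 113 and 88.3 CPM in old AKO libraries, against 30.3, 31.9 and 29.6 CPM in young AKO libraries (log2 fold change 1.87 ± 0.23, adjusted p = 0.00185 by edgeR). Mmp14, a membrane-bound collagenase, Mmp23, a related protease, and Loxl2, a collagen cross-linker, rose by 1.24 ± 0.20, 2.86 ± 0.42 and 0.99 ± 0.21, with adjusted p = 0.00466, 0.00364 and 0.0141 by edgeR. Called matrix genes numbered 8, 9 and 11 without old AKO replicate 1, 2 or 3, against 12, 11 and 8 without young AKO replicate 1, 2 or 3, and called enzymes and inhibitors 3, 6 and 7 without old AKO replicate 1, 2 or 3, against 7, 10 and 3 without young AKO replicate 1, 2 or 3.

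Mesothelial markers had the highest median of the lists with at least 10 genes tested. Of 15 tested out of 17 listed, 13 rose and 0 fell, with a median of 2.39. Igfbp6, a binding protein of insulin-like growth factors, had 42.0, 32.5 and 18.8 CPM in old AKO libraries, against 8.4, 4.52 and 7.37 CPM in young AKO libraries (log2 fold change 2.20 ± 0.41, adjusted p = 0.00798 by edgeR). Upk1b, a uroplakin of the mesothelial surface, had 9.73, 7.46 and 5.64 CPM in old AKO libraries, against 1.99, 0.46 and 1.75 CPM in young AKO libraries (log2 fold change 2.44 ± 0.54, adjusted p = 0.0152 by edgeR). Cldn15, a claudin, and Rspo1, a WNT enhancer, rose by 1.33 ± 0.22 and 2.42 ± 0.48, with adjusted p = 0.00508 and 0.0101 by edgeR. Without C3, which fat cells also make, the other 14 markers summed to 219, 178 and 100.1 CPM in old AKO and 52.6, 28.4 and 41.1 CPM in young AKO. Old AKO replicate 1 was the highest library and old AKO replicate 3 the lowest of the old ones, still above the young. The number called was 3, 6 and 12 without old AKO replicate 1, 2 or 3, against 10, 8 and 4 without young AKO replicate 1, 2 or 3, and the median ranged over 2.01 to 2.66. In WT 8 of 15 were higher and 0 lower, with a median of 1.46. Without young WT replicate 1, 13 were higher in WT and the median was 2.34, and without young WT replicate 2, 1 was higher.

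Cyr61, a matricellular growth regulator and known target of the YAP coactivator, combined a high level with a wide difference. Its libraries stood at 1347, 1332 and 913 CPM in old AKO libraries, against 198, 146 and 135 CPM in young AKO libraries (log2 fold change 2.90 ± 0.27, adjusted p = 0.000344 by edgeR). In WT they stood at 1067, 1107 and 994 CPM in old WT and 849, 412 and 593 CPM in young WT, a log2 fold change of 0.77 ± 0.25 (adjusted p = 0.0468 by edgeR). Young AKO libraries were the lowest of the 4 groups, below every young WT library, while old AKO and old WT libraries overlapped. Of the 16 genes of stroma, matrix and mesothelium named as changed here and above, 13, 15 and 15 remained called without old AKO replicate 1, 2 or 3, as did 16, 15 and 14 without young AKO replicate 1, 2 or 3, and at least 16 without any 1 WT library. These genes are known mainly from cells other than adipocytes, and a larger share of such cells and a change within cells cannot be told apart here.

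Macrophage markers were higher in old AKO. Of 28, 13 rose and 0 fell, with a median of 1.10 and 27 of 28 above 0. Cd209f, a lectin of resident macrophages, had 18.3, 13.4 and 18.3 CPM in old AKO libraries, against 3.7, 3.3 and 2.48 CPM in young AKO libraries (log2 fold change 2.40 ± 0.24, adjusted p = 0.000597 by edgeR). Clec10a, a galactose lectin, had 31.6, 24.1 and 26.8 CPM in old AKO libraries, against 10.3, 11.2 and 7.99 CPM in young AKO libraries (log2 fold change 1.48 ± 0.23, adjusted p = 0.00453 by edgeR). Vsig4, a complement receptor, and C1qa, a chain of the first complement component, rose by 2.65 ± 0.49 and 1.55 ± 0.30, with adjusted p = 0.00757 and 0.00886 by edgeR. The groups did not overlap for these 4. The number called was 5, 9 and 11 without old AKO replicate 1, 2 or 3, against 11, 10 and 5 without young AKO replicate 1, 2 or 3, and the median ranged over 0.99 to 1.3. Of 18 genes of lipid-associated macrophages, the foam-like cells of obese fat, 1 rose and 1 fell in AKO (median 0.09). Over all genes tested 10.4% were higher and 7.93% lower. The tetraspanin Cd9 was higher (2.05 ± 0.42, adjusted p = 0.0113 by edgeR), and Lpl lower. In WT 27 of 28 macrophage markers and 9 of 18 lipid-associated markers were higher and 0 lower, with medians of 2.66 and 1.77, against 25 and 5 higher and medians of 1.85 and 0.57 without old WT replicate 3. In the test of the difference between the ageing effects, 19 of the 28 and 10 of the 18 had an unadjusted p under 0.05, and 0 were called after adjustment. Over all genes tested, 1409 of 15068 had an unadjusted p under 0.05 in that test.

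Antigen presentation and complement genes were higher in part, and their lists share members with the macrophage list. Ctss is shared with antigen presentation, and C1qa, C1qb and C1qc with complement. Of 14 genes of MHC class II presentation, 6 rose and 0 fell, and all 14 lay above 0 (median 1.19). H2-Ab1, a class II chain, had 95.1, 81.8 and 59.5 CPM in old AKO libraries, against 34.7, 33.7 and 25.0 CPM in young AKO libraries (log2 fold change 1.34 ± 0.31, adjusted p = 0.0187 by edgeR). Cd74, the invariant chain that guides class II proteins, had 210.1, 198 and 139.9 CPM in old AKO libraries, against 91.5, 82.0 and 67.5 CPM in young AKO libraries (log2 fold change 1.18 ± 0.30, adjusted p = 0.0238 by edgeR). H2-Aa and the peptide loader H2-DMb1 rose by 1.26 ± 0.33 and 1.70 ± 0.34, with adjusted p = 0.0267 and 0.0109 by edgeR. WT had 12 higher, with a median of 2.0. The AKO count was 1, 1 and 5 without old AKO replicate 1, 2 or 3, against 5, 4 and 0 without young AKO replicate 1, 2 or 3, and the median ranged over 1.02 to 1.33. Of 22 complement genes, 5 rose and 1 fell; C1qc rose by 1.52 ± 0.35 (adjusted p = 0.0175 by edgeR), and the 1 that fell is Masp1, described below. Called complement genes numbered 1, 1 and 3 without old AKO replicate 1, 2 or 3, against 3, 4 and 1 without young AKO replicate 1, 2 or 3.

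Chemokines and interferon-induced genes were called in both directions. Of 29 chemokines and receptors, 7 rose and 3 fell (median 0.72). Ccl8, a macrophage chemokine, had 4.86, 8.71 and 10.1 CPM in old AKO libraries, against 0.529, 0.64 and 0.753 CPM in young AKO libraries (log2 fold change 3.61 ± 0.32, adjusted p = 0.000248 by edgeR). Cxcl13, which attracts B cells, was near 0 in the young libraries, with 1.1, 1.51 and 0.64 CPM in old AKO libraries, against 0.0635, 0 and 0.0367 CPM in young AKO libraries (log2 fold change 4.94 ± 0.85, adjusted p = 0.00594 by edgeR). Ccl24, an eosinophil attractant, rose by 1.52 ± 0.32 (adjusted p = 0.0128 by edgeR). Cxcl9, induced by interferon gamma, was lower in old AKO, with 49.4, 33.9 and 37.6 CPM in old AKO libraries, against 104, 99.8 and 209.8 CPM in young AKO libraries (log2 fold change -1.77 ± 0.34, adjusted p = 0.00917 by edgeR). Of 28 interferon-stimulated genes, 7 rose and 1 fell (median 0.44). Oasl2, Oas2 and the virus-tethering gene Bst2 rose by 1.67 ± 0.24, 2.07 ± 0.34 and 0.91 ± 0.15 (adjusted p = 0.00361, 0.00525 and 0.00508 by edgeR). The 1 that fell was Irf1, a transcription factor of the interferon response, with 276, 176 and 230.3 CPM in old AKO libraries, against 559, 649 and 982 CPM in young AKO libraries (log2 fold change -1.68 ± 0.31, adjusted p = 0.00763 by edgeR). Called genes of the 2 lists numbered 5, 6 and 6 without old AKO replicate 1, 2 or 3, against 8, 9 and 5 without young AKO replicate 1, 2 or 3, and 6, 8 and 6 without old AKO replicate 1, 2 or 3, against 6, 6 and 4 without young AKO replicate 1, 2 or 3.

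Inflammatory genes were called in both directions in AKO and as higher in WT. Of 27 cytokines and NF-kappaB targets, 4 rose and 4 fell in AKO (median 0.18), against 12 higher and 0 lower in WT (median 0.95). In WT the number higher was 6 without old WT replicate 3 and also without young WT replicate 3. Il33, an alarm cytokine of stromal cells, had 3.38, 2.83 and 1.23 CPM in old AKO libraries, against 0.191, 0.22 and 0.441 CPM in young AKO libraries (log2 fold change 3.11 ± 0.52, adjusted p = 0.00514 by edgeR). Ptgs2, the inducible cyclooxygenase, had 13.7, 8.49 and 5.67 CPM in old AKO libraries, against 1.95, 1.2 and 2.55 CPM in young AKO libraries (log2 fold change 2.29 ± 0.44, adjusted p = 0.00877 by edgeR). Old libraries were above young ones in both. Vcam1, an adhesion protein for leukocytes, rose by 1.5 ± 0.34, and Saa3, an acute-phase apolipoprotein, fell by 2.08 (SE 0.46), with adjusted p = 0.0161 and 0.0155 by edgeR. The AKO count was 2, 3 and 4 without old AKO replicate 1, 2 or 3, against 9, 7 and 2 without young AKO replicate 1, 2 or 3. Of the 27, 12 had an unadjusted p under 0.05 in the test of the difference between AKO and WT, beside 1409 of 15068 over all genes tested, and 0 were called after adjustment.

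Lymphocyte and mast cell genes were low in every AKO library. Of 11 T and NK cell markers tested out of 20, 3 rose and 0 fell; Cd247, the zeta chain of the T cell receptor complex, had 6.34, 6.94 and 4.33 CPM in old AKO libraries, against 1.82, 2.0 and 1.2 CPM in young AKO libraries (log2 fold change 1.81 ± 0.33, adjusted p = 0.00745 by edgeR). The T cell markers Cd3d, Cd3e, Cd8a and Cd8b1 had too few reads to be tested. Of 12 B and plasma cell markers tested, 3 rose and 0 fell. Jchain, the joining chain of secreted antibodies, had 7.4, 11.2 and 4.36 CPM in old AKO libraries, against 0.699, 1.04 and 0.588 CPM in young AKO libraries (log2 fold change 3.30 ± 0.52, adjusted p = 0.00456 by edgeR). Mzb1, a chaperone of plasma cells, had 0.328, 0.354 and 0.168 CPM in old AKO libraries and 0 reads in all 3 young AKO libraries, at least 14.3-fold higher (floor of 3 reads, young group). Of 9 mast cell markers, 4 rose and 0 fell, with a median of 3.10 that ranged over 2.36 to 3.50; Hdc, which makes histamine, had 1.89, 2.3 and 1.04 CPM in old AKO libraries, against 0.402, 0.22 and 0.239 CPM in young AKO libraries (log2 fold change 2.60 ± 0.40, adjusted p = 0.00404 by edgeR), and the proteases Tpsb2 and Cma1 rose by 3.10 ± 0.58 and 3.14 ± 0.71 (adjusted p = 0.00809 and 0.0163 by edgeR). Called markers numbered 1 to 3 with 1 library left out for T and NK cells, 2 to 6 with 1 library left out for B and plasma cells and 2 to 4 with 1 library left out for mast cells. Of 10 neutrophil markers 4 could be tested, with 1 higher and 0 lower. Of the 28 immune genes named in this and the paragraphs above as changed, 21, 22 and 28 remained called without old AKO replicate 1, 2 or 3, as did 27, 27 and 19 without young AKO replicate 1, 2 or 3, and at least 28 without any 1 WT library.

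Serpina3 protease inhibitors were 6 of the 12 genes named for the largest falls. They lie in a cluster on chromosome 12, between 104214544 (the start of Serpina3f) and 104414329 (the end of Serpina3n, mm10). Over the 11 Serpina3 genes tested, a list made after their values were seen, 8 fell and 0 rose. Serpina3f had 1.3, 0.66 and 0.959 CPM in old AKO libraries, against 9.76, 12.8 and 19.4 CPM in young AKO libraries (log2 fold change -3.84 ± 0.67, adjusted p = 0.006 by edgeR). Serpina3k had 0.295, 1.92 and 1.16 CPM in old AKO libraries, against 9.7, 41.8 and 21.0 CPM in young AKO libraries (log2 fold change -4.42 ± 1.10, adjusted p = 0.0226 by edgeR). Serpina3g, Serpina3i, Serpina3j and Serpina3m fell (log2 fold change -3.56 ± 0.94, -3.15 ± 0.91, -2.96 ± 0.92 and -2.63 ± 0.54), with adjusted p = 0.028, 0.0365, 0.048 and 0.0119 by edgeR. These genes are near-identical copies, so reads may have been shared out among them, and single levels are uncertain. Without Serpina3n and Serpina3c, the other 9 tested summed to 6.80, 10.9 and 10.2 CPM in old AKO and 45.3, 103.8 and 93.8 CPM in young AKO. Serpina3n, the most abundant copy, had 367, 491 and 551 CPM in old AKO libraries, against 878, 1289 and 1269 CPM in young AKO libraries (log2 fold change -1.28 ± 0.23, adjusted p = 0.00649 by edgeR). The count of lower genes was 2, 3 and 4 without old AKO replicate 1, 2 or 3, against 7, 4 and 4 without young AKO replicate 1, 2 or 3 of the 11, and the median ranged over -3.32 to -2.52. WT had 9 lower, with a median of -2.90, at 0.512, 0.625 and 0.337 CPM in old WT and 1.04, 24.9 and 44.5 CPM in young WT for Serpina3k, where young WT replicate 1 lay near the old libraries.

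Promoters were at hand for 8 of the 11 Serpina3 genes; Serpina3k and Serpina3m are among those named only. The STAT-type letters TTCNNNGAA, a palindrome read in the 250 bases before the start, were found in 4 of their 9 promoters, which belong to 3 of the 8 genes, against 7.02% of all 32851 promoters of that length and 6.05% of those of genes tested. Serpina3f has overlapping windows (chr12:104214294-104214543 and chr12:104214383-104214632) that hold the same match, so it is counted more than once. As these genes are near-identical copies, their matches are not independent, and the shares describe letters only. A promoter of each is printed because the 3 genes fell and it holds the motif that acute-phase signals are known to use. Serpina3j and Serpina3n also fell, and their windows held no match. No match in the other promoters says only that these letters are not in that window. Bases are from RefSeq (GRCm38.p6), 5′ to 3′, with the motif in capitals, for Serpina3f (chr12:104214294-104214543, plus strand), Serpina3g (chr12:104235897-104236146, plus strand) and Serpina3i (chr12:104262872-104263121, plus strand). The 1 transcript counted as Serpina3g spans 104214544 to 104241934 (mm10) and starts where Serpina3f starts. The Serpina3g window printed here precedes a RefSeq start inside that span, not the start of the counted transcript.
Serpina3f: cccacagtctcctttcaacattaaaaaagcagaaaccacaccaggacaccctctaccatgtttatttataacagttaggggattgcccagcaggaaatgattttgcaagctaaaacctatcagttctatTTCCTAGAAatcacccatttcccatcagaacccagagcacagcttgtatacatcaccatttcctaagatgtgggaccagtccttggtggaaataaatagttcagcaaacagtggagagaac
Serpina3g: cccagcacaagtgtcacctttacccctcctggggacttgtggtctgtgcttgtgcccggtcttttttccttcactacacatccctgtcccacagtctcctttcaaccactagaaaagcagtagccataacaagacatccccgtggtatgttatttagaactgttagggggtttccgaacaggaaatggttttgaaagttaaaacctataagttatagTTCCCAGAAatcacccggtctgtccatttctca
Serpina3i: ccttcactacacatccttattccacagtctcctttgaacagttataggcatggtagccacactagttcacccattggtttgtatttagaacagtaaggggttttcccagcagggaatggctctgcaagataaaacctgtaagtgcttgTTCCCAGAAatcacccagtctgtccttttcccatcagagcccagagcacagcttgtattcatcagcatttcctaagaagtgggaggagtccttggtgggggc

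**Figure D3:**
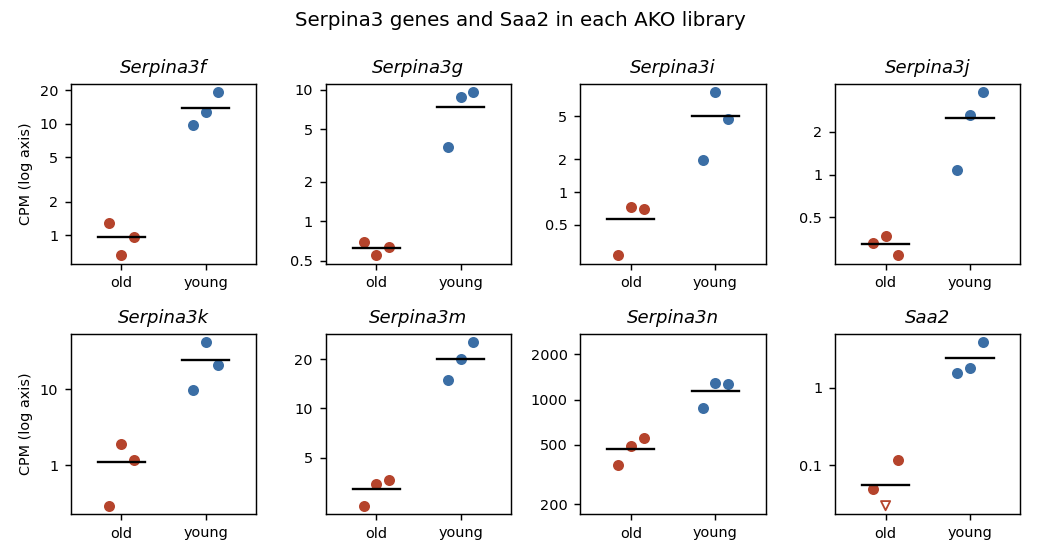
CPM on log axes (y axis) of 7 Serpina3 genes and Saa2 in the 3 old and 3 young AKO libraries (x axis); points are libraries, bars group means, and the open triangle a library with 0 reads. Serpina3f lies at 1.3, 0.66 and 0.959 CPM in old AKO, against 9.76, 12.8 and 19.4 CPM in young AKO.

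Saa2, Masp1 and Il1r2 were also among the 12 largest falls. Saa2, a serum amyloid protein of the acute phase, had 0.0493, 0 and 0.118 CPM in old AKO libraries, against 1.57, 1.78 and 3.88 CPM in young AKO libraries (log2 fold change -5.39 ± 1.13, adjusted p = 0.0125 by edgeR). Masp1, the protease that starts the lectin branch of complement, had 0.492, 0.837 and 0.774 CPM in old AKO libraries, against 12.7, 2.12 and 7.3 CPM in young AKO libraries (log2 fold change -3.39 ± 0.80, adjusted p = 0.0193 by edgeR). Il1r2, the decoy receptor that soaks up interleukin 1, had 0.295, 0.419 and 0.353 CPM in old AKO libraries, against 1.48, 2.58 and 2.28 CPM in young AKO libraries (log2 fold change -2.56 ± 0.53, adjusted p = 0.0124 by edgeR). Levels were low in all libraries for Saa2 and Il1r2. Of the 10 genes named here and with the Serpina3 cluster as changed, 2, 5 and 5 remained called without old AKO replicate 1, 2 or 3, as did 8, 6 and 5 without young AKO replicate 1, 2 or 3, and at least 8 without any 1 WT library.

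Heat shock genes rose in part. Of 20, 4 rose and 0 fell, with a median of 0.21, and the 4 were Hspb1, Hspa1b, Hspa1a and Hsph1. Hspb1, the small heat shock protein Hsp25 of mouse, had 166, 172 and 130.1 CPM in old AKO libraries, against 62.4, 51.4 and 58.4 CPM in young AKO libraries (log2 fold change 1.45 ± 0.15, adjusted p = 0.000597 by edgeR). Hspa1b and Hspa1a, near-identical copies of inducible Hsp70 whose single levels are uncertain, had 65.1, 68.6 and 32.4 CPM in old AKO and 21.0, 16.1 and 18.0 CPM in young AKO (1.59 ± 0.30), and 68.4, 75.5 and 41.4 CPM in old AKO and 27.2, 24.9 and 27.0 CPM in young AKO (1.23 ± 0.24, adjusted p = 0.00834 and 0.00886 by edgeR). Old AKO replicate 3 was the lowest old library of each and lay above every young one. Hsph1, their nucleotide exchange partner, rose by 1.09 ± 0.29 (adjusted p = 0.0279 by edgeR). The number called was 3, 3 and 4 without old AKO replicate 1, 2 or 3, against 5, 3 and 3 without young AKO replicate 1, 2 or 3. The heat shock element letters GAANNTTC, a palindrome read in 250 bases before the start, were found in 6 of 21 promoters of the 15 heat shock genes with a promoter at hand, against 6.69% of all promoters of that length and 5.03% of those of genes tested. Of the genes holding them, Hspa1a, Hspa1b and Hspb1 rose, while Hspd1 (-0.30), Hspe1 (-0.14) and Dnaja1 (0.03) were not called. The windows of Hspd1 and Hspe1 overlap. Hsph1, which rose, did not hold the letters. Hspa1b (chr17:34959239-34959488, minus strand) and Hspb1 (chr5:135887669-135887918, plus strand) are printed because both rose and both hold the motif (RefSeq, GRCm38.p6, 5′ to 3′, motif in capitals).
Hspa1b: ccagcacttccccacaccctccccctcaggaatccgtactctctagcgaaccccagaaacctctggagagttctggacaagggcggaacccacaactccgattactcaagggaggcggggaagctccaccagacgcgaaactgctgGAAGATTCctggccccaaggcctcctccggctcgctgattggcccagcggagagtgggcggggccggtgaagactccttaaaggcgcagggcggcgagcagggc
Hspb1: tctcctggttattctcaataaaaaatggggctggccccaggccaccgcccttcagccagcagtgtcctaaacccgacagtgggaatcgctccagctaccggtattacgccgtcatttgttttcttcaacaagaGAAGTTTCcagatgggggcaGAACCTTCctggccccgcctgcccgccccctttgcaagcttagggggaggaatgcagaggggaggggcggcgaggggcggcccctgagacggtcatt

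Freeing cells from tissue is known to raise immediate early and heat shock genes, and a list of that response is given beside these. Of 26 such genes, 6 rose and 2 fell (median 0.25); they include Hspa1a, Hspa1b and Dusp1 described above and Klf2, a factor of quiescent endothelium (0.83 ± 0.12, adjusted p = 0.00379 by edgeR). Called genes of this list numbered 3, 4 and 4 without old AKO replicate 1, 2 or 3, against 4, 5 and 4 without young AKO replicate 1, 2 or 3. Their part in the heat shock and CREB target results was not tested. Of 30 antioxidant genes, 0 rose and 4 fell (median -0.16). Sod2, the superoxide dismutase of mitochondria, had 213, 197 and 220 CPM in old AKO libraries, against 383, 325 and 435 CPM in young AKO libraries (log2 fold change -0.86 ± 0.13, adjusted p = 0.00369 by edgeR), and Prdx3, its peroxiredoxin neighbour in mitochondria, Prdx1 and Gclm, a subunit of glutathione synthesis, fell by 0.41 (SE 0.09), 0.54 (SE 0.14) and 0.45 (SE 0.12), with adjusted p = 0.0152, 0.0243 and 0.0265 by edgeR. The lower antioxidant genes numbered 1, 1 and 2 without old AKO replicate 1, 2 or 3, against 3, 4 and 1 without young AKO replicate 1, 2 or 3. Of 24 genes of the unfolded protein response, 1 rose, the chaperone partner Sdf2l1 (1.07 ± 0.32), and 1 fell, Chac1, a glutathione-degrading enzyme (-1.28 ± 0.21, adjusted p = 0.0401 and 0.00461 by edgeR). The other stress list, of 26 lysosome and autophagy genes, had 1 higher and 1 lower. Both counts stand beside 10.4% higher and 7.93% lower over all genes tested.

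Senescence and cell division genes were called in few cases in AKO. Of 24 regulators of senescence, 2 rose and 2 fell (median 0.02), beside 10.4% higher and 7.93% lower over all genes tested. Cdkn2a, which encodes the cell cycle inhibitor p16, was low in all libraries, with 1.22, 0.982 and 1.33 CPM in old AKO libraries, against 0.318, 0.46 and 0.459 CPM in young AKO libraries (log2 fold change 1.5 ± 0.34, adjusted p = 0.0172 by edgeR). Counts of Cdkn2a were summed over 2 transcripts, so this level is not that of a single transcript. Among the other inhibitors of cyclin-dependent kinases, Cdkn1c rose, with 28.4, 31.4 and 34.3 CPM in old AKO and 15.9, 19.4 and 16.3 CPM in young AKO (0.86 ± 0.18), and Cdkn1b fell, with 10.7, 11.9 and 9.49 CPM in old AKO and 14.8, 19.3 and 17.1 CPM in young AKO (-0.67 ± 0.12, adjusted p = 0.0115 and 0.00763 by edgeR). The groups did not overlap in any of the 3. The chemokine Cxcl1, of the senescent secretome, fell by 1.16 (SE 0.35, adjusted p = 0.0442 by edgeR). Called senescence regulators numbered 1 to 5 with 1 library left out. Of 27 cell division genes, 1 rose, Cdc20, an activator of the anaphase complex, with 1.72, 0.87 and 0.875 CPM in old AKO libraries, against 0.339, 0.42 and 0.404 CPM in young AKO libraries (log2 fold change 1.57 ± 0.41, adjusted p = 0.0276 by edgeR), and 0 fell, at a median of 0.31. In WT 21 of the 27 were higher and 0 lower, with a median of 1.75. The 27 genes summed to 200.3, 169 and 412 CPM in old WT libraries and 99.4, 134 and 127 CPM in young WT libraries, so that old WT replicate 3 stood above the others. Without it the median in WT was 0.95 and 7 of the 27 were higher. When young WT replicate 3 was left out instead, 8 were higher. The summed level of the 27 genes was 110.2 to 124 CPM in old AKO libraries and 101 to 119 CPM in young AKO libraries, so the groups overlap. Of the 16 stress, senescence and division genes named as changed, 9, 10 and 12 remained called without old AKO replicate 1, 2 or 3, as did 11, 13 and 7 without young AKO replicate 1, 2 or 3, and at least 13 without any 1 WT library.

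The largest rises were of genes at low levels in young AKO. Trdn, triadin of the muscle calcium release unit, had 6.5, 8.16 and 8.15 CPM in old AKO libraries and 0 reads in all 3 young AKO libraries, at least 384.5-fold higher when the young group is put at a floor of 3 reads, a bound that covers counting error only. Nkain2, a partner of the sodium pump, had 2.33, 2.5 and 2.91 CPM in old AKO libraries and 0 reads in young AKO, at least 130.5-fold higher. Slc5a7, the choline transporter of cholinergic neurons, had 22.4, 40.6 and 37.1 CPM in old AKO libraries, against 1.52, 0.3 and 2.59 CPM in young AKO libraries (log2 fold change 4.49 ± 1.31, adjusted p = 0.0379 by edgeR). Cadps, a factor of dense-core vesicle release, had 13.2, 15.4 and 15.8 CPM in old AKO libraries, against 0.233, 1.42 and 0.772 CPM in young AKO libraries (log2 fold change 4.19 ± 1.01, adjusted p = 0.0209 by edgeR). Both were under 3 CPM in every young library. Glrb, a glycine receptor subunit, Lipf, gastric lipase, and Aass, of lysine breakdown, rose by 6.15 ± 1.68, 4.62 ± 1.14 and 4.25 ± 0.76, with adjusted p = 0.0308, 0.0221 and 0.0069 by edgeR. Wfdc1, a secreted protease inhibitor, Tmem150c, a membrane protein, and Igfbp2, a binding protein of insulin-like growth factors, rose by 4.14 ± 0.45, 4.11 ± 0.30 and 4.04 ± 0.73, with adjusted p = 0.000888, 0.000138 and 0.00733 by edgeR. Among the largest falls outside the groups above was Itm2a, a membrane protein of differentiating cells, with 0.854, 1.11 and 0.539 CPM in old AKO libraries, against 5.93, 4.82 and 4.92 CPM in young AKO libraries (log2 fold change -2.64 ± 0.38, adjusted p = 0.00346 by edgeR).

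The other 2 of the 12 largest rises are genes of sperm cells, and 1 library had most of their reads. Gsg1, a germ cell gene, had 7.34, 0.596 and 0.118 CPM in old AKO libraries, against 0.106, 0 and 0.0184 CPM in young AKO libraries, and Crisp2, a sperm secretory protein, had 8.04, 2.43 and 1.53 CPM in old AKO libraries, against 0.169, 0 and 0.0735 CPM in young AKO libraries. Old AKO replicate 1 was the highest in both (5.99 ± 1.56 and 5.61 ± 1.24, adjusted p = 0.0263 and 0.0152 by edgeR). The protamines Prm1 and Prm2, which pack sperm DNA, showed the same library: 18.8, 0.483 and 0 CPM of Prm1 and 22.2, 1.56 and 0.0842 CPM of Prm2 in old AKO, against 0.212, 0 and 0 and 0.55, 0.12 and 0 CPM in young AKO, with no call. Of 8 epididymis and testis markers tested out of 16, 2 rose and 0 fell, Sycp3, a protein of meiotic chromosomes, with 47.0, 30.9 and 38.1 CPM in old AKO libraries, against 21.6, 8.46 and 13.8 CPM in young AKO libraries (log2 fold change 1.41 ± 0.34, adjusted p = 0.0207 by edgeR), and Ddx4, a germ cell helicase, with 1.53, 0.451 and 0.236 CPM in old AKO and 0, 0.14 and 0.0551 CPM in young AKO (3.45 ± 1.06, adjusted p = 0.0461 by edgeR). Sycp3 did not follow the protamines, since its 3 old libraries were close together. Crisp1, a secreted protein of the epididymis, had 0 CPM in all 6 AKO libraries. Without old AKO replicate 1 the number of these markers called was 0, and the number of all genes called was 732. Without young AKO replicate 3 these numbers were 0 and 833. The part of testis RNA in these rises was not tested. Of the 15 genes named here and in the paragraph above as changed, 7, 10 and 12 remained called without old AKO replicate 1, 2 or 3, as did 10, 11 and 7 without young AKO replicate 1, 2 or 3, and at least 13 without any 1 WT library.

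Whether old differs from young in another way in AKO than in WT was tested gene by gene, as the difference of the ageing effects. The AKO and WT comparisons share no libraries. In WT 3451 genes were called (22.9%), 2135 higher and 1316 lower. Of the AKO calls, 54.2% were also called in WT, and of the WT calls, 43.4% were also called in AKO. Of the 1498 genes called in both, 1495 had the same direction. Of the AKO rises, 1549 of 1571 had a WT log2 fold change above 0, and of the AKO falls, 1141 of 1195 had one below 0. The difference itself was called for 1 gene of 15068 (0.00664%) by edgeR, and 1409 genes had an unadjusted p under 0.05. DESeq2 called 57 genes, and limma-voom 0. Of the 2766 genes called in AKO, 333 had an unadjusted p under 0.05 for the difference and 0 were called, so the ageing differences above were not shown to be particular to AKO.

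The gene called was Zfp973, a zinc finger gene with near-identical copies on chromosome 2 among which reads may be shared out, so its level is uncertain. It had 2.68, 2.16 and 3.01 CPM in old AKO and 3.49, 2.94 and 3.00 CPM in young AKO, and 1.57, 2.91 and 1.35 CPM in old WT and 0, 0 and 0 CPM in young WT, with 0 reads in all 3 young WT libraries, so that the call rests on the WT side (adjusted p = 0.00864 for the difference by edgeR). In the AKO comparison Zfp973 was not called (adjusted p = 0.582 by edgeR), and its groups overlapped.

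Among the other 9 genes with the smallest p for the difference, none passed adjustment. Lum, the matrix proteoglycan lumican, had 12.2, 9.05 and 8.31 CPM in old AKO and 12.1, 11.6 and 11.5 CPM in young AKO, and 28.6, 24.9 and 36.6 CPM in old WT and 11.5, 12.9 and 13.2 CPM in young WT (difference -1.52 ± 0.23, adjusted p = 0.239 by edgeR). Old WT libraries of Lum stood alone above the other 3 groups. Vasn, vasorin, which binds TGF-beta, rose in AKO, with 137, 138 and 95.7 CPM in old AKO and 41.7, 52.8 and 59.9 CPM in young AKO, and had 79.4, 77.6 and 72.5 CPM in old WT and 118, 79.3 and 97.3 CPM in young WT (difference 1.63 ± 0.26, adjusted p = 0.239 by edgeR). Vegfa, the vessel growth factor, had 468, 415 and 473 CPM in old AKO and 379.7, 424 and 439 CPM in young AKO, and 336, 396 and 325 CPM in old WT and 635, 516 and 584 CPM in young WT (difference 0.84 ± 0.16, adjusted p = 0.415 by edgeR). Its AKO groups overlapped and its old WT libraries lay below the young WT ones. Irf8, a transcription factor of macrophages and dendritic cells, fell in AKO, with 17.7, 14.1 and 13.7 CPM in old AKO and 32.3, 20.2 and 24.2 CPM in young AKO, against 28.8, 29.8 and 50.4 CPM in old WT and 13.8, 18.4 and 16.7 CPM in young WT (difference -1.91 ± 0.34, adjusted p = 0.284 by edgeR). Cyr61, given above, had a difference of 2.13 ± 0.35, Mrpl54, of the mitochondrial ribosome, -0.59 ± 0.10, Senp3, a SUMO protease, -0.67 ± 0.12, and Sash1, a scaffold protein, 0.77 ± 0.14. Vps26a, of the retromer, differed by 2.38 ± 0.46, with old AKO replicate 1 at 29.0 CPM and the other 2 old AKO libraries at 87.8 and 93.2 CPM.

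**Figure D4:**
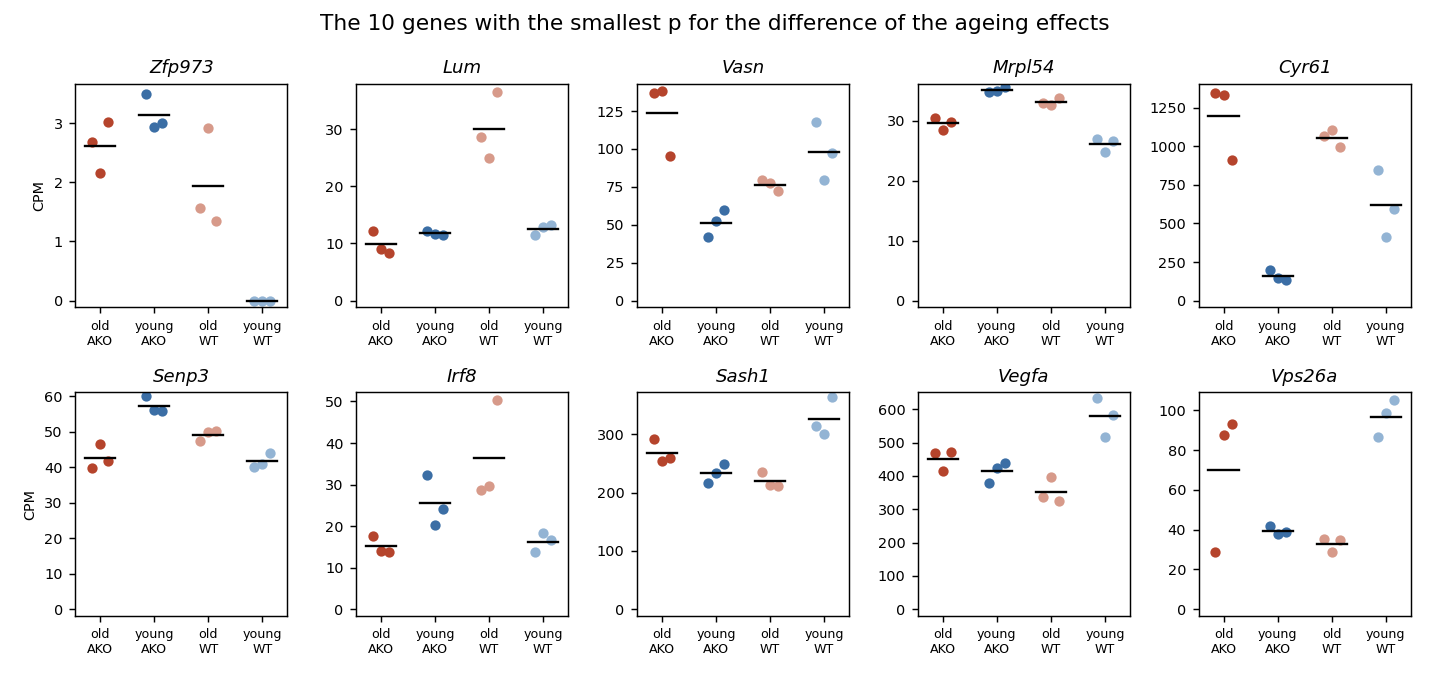
CPM (y axis, from 0) of the 10 genes with the smallest p for the difference of the ageing effects, in old AKO, young AKO, old WT and young WT libraries (x axis); points are libraries and bars group means. In Zfp973 young WT stands at 0, in Lum old WT stands alone, and in Cyr61 young AKO lies lowest, at 198, 146 and 135 CPM.

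By list, the ageing differences of AKO and WT were spread unevenly, as a description with no test over the list. For oxidative phosphorylation, 43 of 44 genes had a lower log2 fold change in AKO than in WT, and for cell division 27 of 27 and for macrophage markers 27 of 28 did. For endothelial markers 19 of 20 had a higher log2 fold change in AKO, and for mesothelial markers 13 of 15. Without young WT replicate 1, 9 of the 15 mesothelial markers had a lower log2 fold change in AKO instead. Over all genes tested 7920 of 15068 were lower and 7146 higher in AKO than in WT. At an unadjusted p under 0.05 the difference held for 11 of 44 respiratory chain genes, 14 of 27 cell division genes, 19 of 28 macrophage markers and 0 of 20 endothelial markers, and 0 in each list were called after adjustment. Over all genes tested it held for 1409 of 15068 at that threshold. The summed macrophage markers of old WT libraries were 2524, 1563 and 6820 CPM, so that old WT replicate 3 stood above the others. Without that library 24 of 27 cell division genes, 27 of 28 macrophage markers and 43 of 44 respiratory chain genes still had a lower log2 fold change in AKO, and without old WT replicate 1 the last number was 34.

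**Figure D5:**
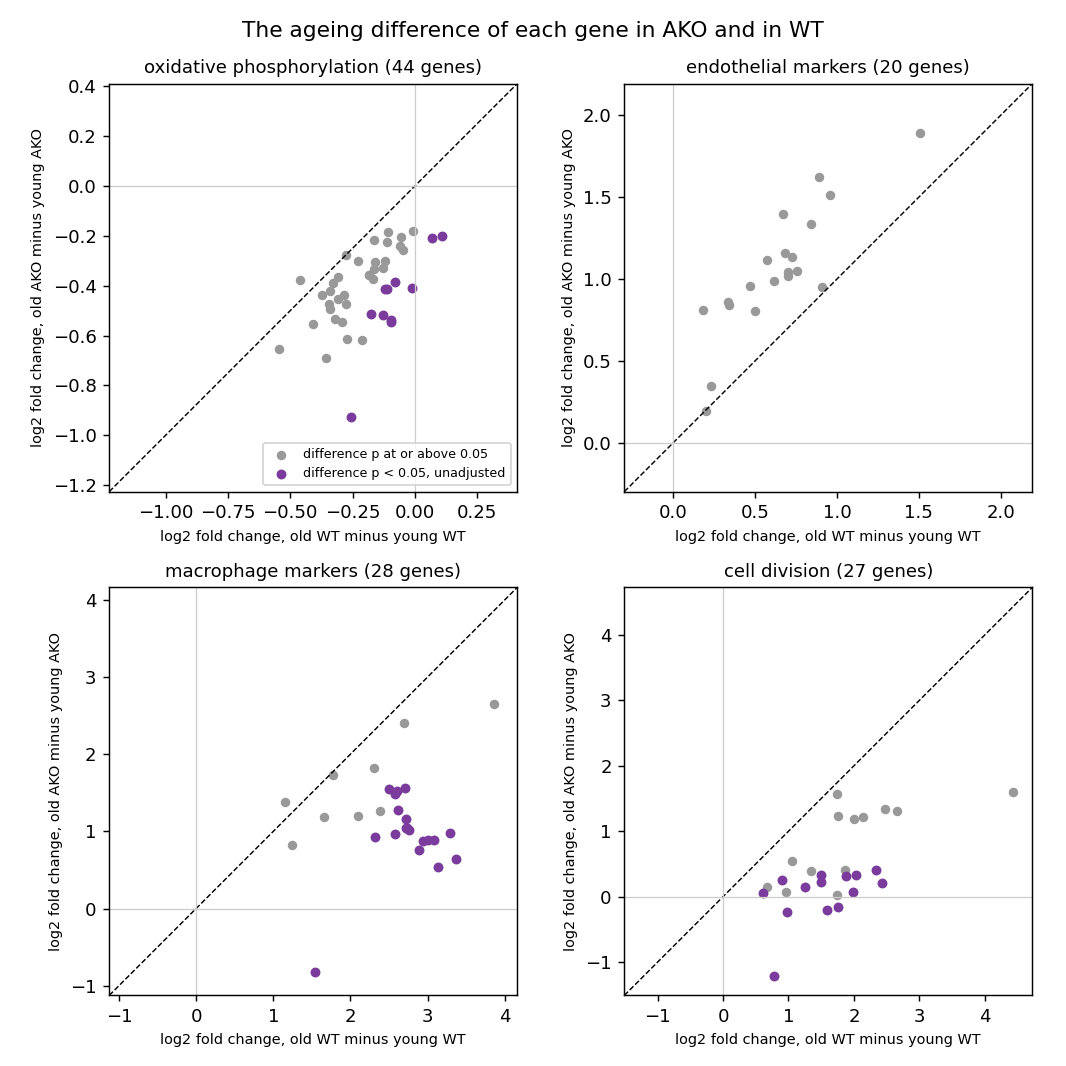
Log2 fold change of old over young in AKO (y axis) against that in WT (x axis) for each tested gene of 4 lists; purple points have an unadjusted p under 0.05 for the difference, and the dashed line marks equal values. Respiratory chain, macrophage and cell division genes lie below the line (43 of 44, 27 of 28 and 27 of 27), and endothelial markers above it (19 of 20).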

How the data were processed

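Poly-A RNA of epididymal primary adipocytes was sequenced on a HiSeq4000 with the TruSeq mRNA kit, and a RIN above 7 was required, per the labels' protocols. The submitters' processing notes name StringTie 1.3.4d, Bowtie2, HISAT and HISAT2 2.1.0, without their roles, and mouse genome mm10. The authors deposited a table of 36779 transcripts with 1 FPKM value and 1 estimated count of reads in each library. The deposited counts are whole numbers not scaled for depth, with totals of 45935795 to 61125366 per library. How reads of near-identical genes were shared out, and whether strand was used, are not given in the sources used here. The table holds 0 mitochondrial transcripts, and 1 emptied line is not analysed here.

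Counts were summed per gene symbol, which joined several transcripts for 6489 of 24541 symbols. Genes passing filterByExpr (15068) were tested in 1 quasi-likelihood model with edgeR 4.0.16 (R 4.3.3) over all 12 libraries, with TMM scaling, a term per group of 3 libraries and 8 residual degrees of freedom. The common biological coefficient of variation was 24.7%. P-values were adjusted by Benjamini-Hochberg over all genes tested, with a threshold of 0.05, and adjusted p named as edgeR come from this model. The difference of the ageing effects is the AKO contrast minus the WT contrast. The FPKM values deposited by the authors were summed per gene and used only as an alternative, with limma 3.58.1 on log2(FPKM + 1). DESeq2 1.42.0, limma-voom, other filters and scalings, single transcripts and each library left out were the other alternatives. The test was tried on simulated counts with known changes.

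The 12 largest rises and 12 largest falls were named among called genes with a mean of at least 1 CPM in AKO and groups that do not overlap, leaving out gene models without a name, then at most 4 genes per list by smallest p, and 10 genes for the difference; some genes chosen by this rule are not reported here. Further genes were named after their values were seen, such as the protamines, Plin1, Adipoq, Fabp4, Serpina3n and Crisp1. The comparison, the members and the lists were chosen with earlier results of these data known. Same-numbered replicates did not deviate together (correlations of -0.0636 to 0.0902 over genes), so the numbers were not used to pair libraries. Promoters are the 250 bases before a RefSeq start site (GRCm38.p6).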

Additional observations from a re-analysis of the deposited data

Results flagged for a closer look

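Zfp973 differed between AKO and WT in the test of the difference of the ageing effects. The fitted log2 difference, AKO minus WT, was -10.01 (adjusted p = 0.00864 by edgeR), with 2.68, 2.16 and 3.01 CPM in old AKO and 3.49, 2.94 and 3.00 CPM in young AKO beside 1.57, 2.91 and 1.35 CPM in old WT and 0, 0 and 0 CPM in young WT. Since all 3 young WT libraries held 0 reads, the fitted size depends on the model's prior count and is no bound. The adjusted p was 0.0739 by limma-voom, 0.16 with the replicate number as a block and 0.212 on FPKM, and 0.00419 to 0.0466 with 1 library left out. Its 2 transcripts lie between 175469985 and 176681090 on chromosome 2 (mm10), and the part of reads shared with near-identical copies was not tested.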

How the results depend on the processing

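Counts of calls depended on the setting far more than directions did. The count for ageing in AKO (2766) was 1019 with each transcript tested alone, 473 for a fold over 1.5, and 732 to 3771 with 1 library left out. For a fold over 1.5, 436 genes were higher and 37 lower, against 1571 higher and 1195 lower in the main test, so few of the falls passed. The count for ageing in WT (3451) was 1058 on the 6 WT libraries alone, 1640 for single transcripts, 827 for a fold over 1.5, and 1511 to 4436 with 1 library left out. The difference of the ageing effects, called for 1 gene, was called for 57 genes by DESeq2, 7 transcripts when these were not summed, 2 genes without old WT replicate 3 and young WT replicate 1, 1 to 4 genes with 1 library left out, and 0 by limma-voom, on FPKM and with the replicate block. The cause was not tested; tests of single transcripts and of fewer libraries have fewer reads or libraries by construction. With the replicate block, the AKO count was 2210 and the WT count 2813, but same-numbered libraries did not deviate together.

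Of the 144 genes named as changed in AKO, 0 changed direction under any alternative. The number still called was 141 by RLE scaling, 126 by limma-voom, 131 with the replicate block, 116 on FPKM, 68 for a fold over 1.5, and 83 to 144 with 1 library left out, lowest without old AKO replicate 1. For a fold over 1.5, 1 of 14 mitochondrial genes and 1 of 11 genes of lipid metabolism and adipokines remained called. The same setting kept 8 of 9 vessel genes, 13 of 16 genes of stroma, matrix and mesothelium and 20 of 28 immune genes. Of genes named as not changed, Adipoq (0.11) ranged over -0.046 to 0.21 with 1 library left out, lowest without young AKO replicate 1, and Fabp4 (0.01) over -0.076 to 0.071. Medians of the adipokine, senescence, thermogenic and skeletal muscle lists changed sign under at least 1 alternative, and that of the clock list on FPKM.

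Library totals ran from 45935795 to 61125366 estimated reads. The common biological coefficient of variation between libraries of a group was 24.7%, and the difference of the ageing effects, which sets 4 groups of 3 libraries against each other, has a larger error than either comparison alone: for Cyr61 its SE was 0.35, against 0.27 in AKO and 0.25 in WT. Genes called in 1 genotype only were therefore not shown to differ between AKO and WT.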

Other observations

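The genes with the smallest p of the AKO comparison that belong to no list above were Rcan2, a regulator of the phosphatase calcineurin, Atp8a1, a phospholipid flippase, Fam124a, and Slc25a12, the mitochondrial carrier of aspartate and glutamate. Rcan2 had 9.03, 7.26 and 9.98 CPM in old AKO libraries, against 0.487, 0.94 and 0.68 CPM in young AKO libraries (log2 fold change 3.63 ± 0.23, adjusted p = 9.58e-05 by edgeR). Slc25a12 had 16, 15.6 and 13.9 CPM in old AKO libraries, against 4.76, 5.44 and 4.03 CPM in young AKO libraries (log2 fold change 1.68 ± 0.13, adjusted p = 0.000225 by edgeR), a rise, while the respiratory chain genes described above were lower. Atp8a1 and Fam124a rose by 2.06 ± 0.14 and 1.72 ± 0.12, with adjusted p = 9.58e-05 and 0.000118 by edgeR. In WT the log2 fold change was 2.37 ± 0.22 for Rcan2, 1.5 ± 0.13 for Slc25a12, 1.44 ± 0.13 for Atp8a1 and 0.87 ± 0.12 for Fam124a, also higher in old libraries. All 4 remained called in AKO with any 1 of the 12 libraries left out.

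The alpha globin genes show how counts of near-identical copies can move between symbols. Hba-a1 had 3.74, 5.68 and 149 CPM in old AKO libraries, against 114, 1.94 and 143 CPM in young AKO libraries, and Hba-a2 had 227, 169 and 0.253 CPM in old AKO libraries, against 0.212, 85.2 and 0.147 CPM in young AKO libraries, so that nearly all reads lay with 1 copy in some libraries and with the other copy elsewhere. Their sums lay closer together, at 230.3, 174.8 and 149.7 CPM in old AKO and 113.9, 87.2 and 143 CPM in young AKO. The beta globins summed to 193, 141 and 126 CPM in old AKO and 100.5, 72.1 and 109.8 CPM in young AKO.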
